A study of Mus musculus with 60 samples.

Results

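Livers of mice fed a control chow, with and without the peptide NaKtide, were compared by RNA sequencing. The comparison was defined by tissue, diet and treatment in the labels, and it used 10 of the study's 60 libraries, 5 livers with NaKtide and 5 without. The study as a whole covers liver, subcutaneous fat and visceral fat in 12 groups of 5 libraries, and its title concerns the Na,K-ATPase of adipocytes as an amplifier of oxidants. The mice of both groups had eaten for 12 weeks a chow with 27% protein, 62% carbohydrate and 11% fat. Mice of the NaKtide group were transgenic and received doxycycline at 300 mg/kg in that chow to switch the peptide on, so the drug is part of the treatment. Whether mice of the other group carried the transgene or ate doxycycline is not given in the sources used here, nor are the promoter that drives the transgene, the strain and the age. The peptide's effect and any effect of the drug cannot be told apart. Transcripts of the transgene were not analysed here, so the labels have no check from it. Below, control livers are those without NaKtide, and livers are numbered by the replicate number in their labels. The labels do not say that a number marks a shared mouse, litter or day, and they do not say more of the 5 samples of a group than their number. P-values therefore measure only the spread between these samples, which may be technical.

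NaKtide is a stretch of the Na,K-ATPase that binds the kinase Src and blocks signalling from the pump through Src. Of the 26 pathway lists examined here, those of fatty acid and cholesterol synthesis had the largest medians. In liver, cholesterol and fatty acid synthesis are driven by the SREBP transcription factors. When membranes are short of sterol, the escort SCAP carries SREBP out of the endoplasmic reticulum and proteases release the active factor, whereas Insig proteins hold SCAP back when sterol is plentiful. One form, SREBP2, serves mainly the sterol genes, while SREBP1c acts with the sugar-sensing factor ChREBP on fatty acid synthesis after a meal.

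With NaKtide, 148 of the 12991 genes tested were higher (1.14% of the genes tested) and 53 were lower (0.408%), 201 in all (1.55%). These calls rest on edgeR's quasi-likelihood test at a Benjamini-Hochberg adjusted p of 0.05, in 1 fit of the 20 livers of both diets, and adjusted p-values below come from it unless another fit is named. Levels are given in CPM, counts scaled to a common library total with TMM factors. Changes are log2 ratios of NaKtide over control with a standard error. That error was derived from the test, as the size of the change divided by the square root of its F value. At an unadjusted p under 0.05 there were 2458 genes. Of the raised genes 95 changed more than 2-fold, as did 36 of the lowered ones. Every NaKtide liver lay above every control liver in 120 of the 148 raised genes, a pattern found in 2.52% of all genes tested. Every NaKtide liver lay below every control liver in 28 of the 53 lowered genes, against 1.55% of all genes. Raised and lowered genes were called from these same livers, so both shares lean high by construction. The median log2 change of all genes tested was 0.01. In bulk tissue, fewer cells of a type and less RNA per cell cannot be told apart.

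**Figure D1:**
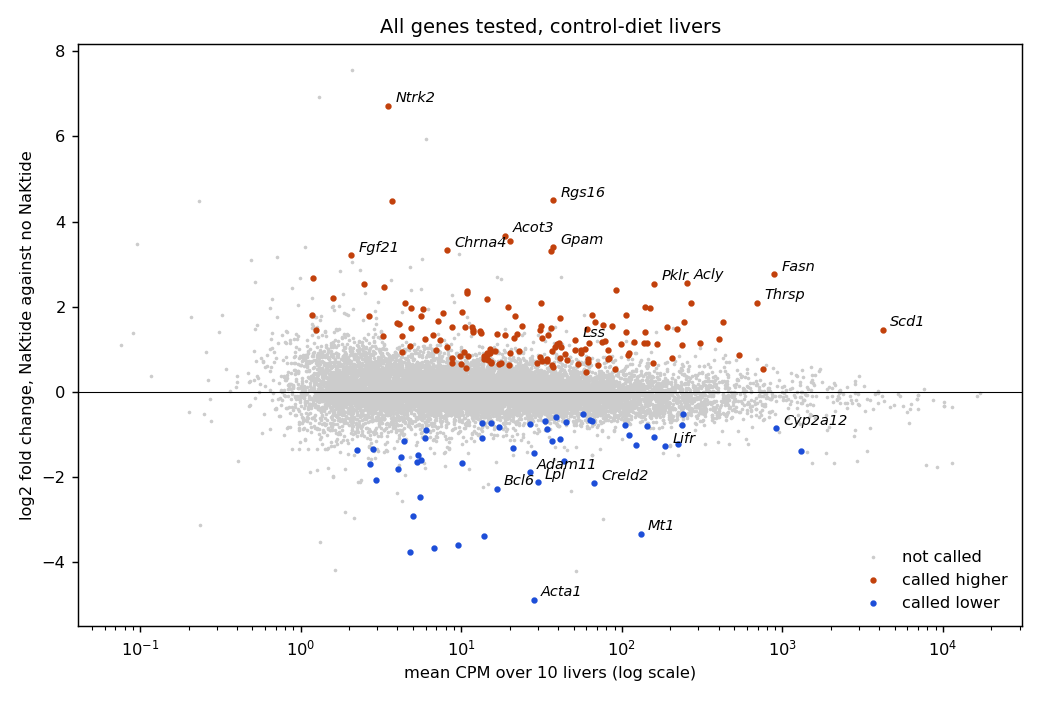
Log2 fold change with NaKtide (vertical) against mean level over the 10 livers in CPM (horizontal, log scale), 1 point per gene tested. Raised genes are orange and lowered genes blue. Fasn and Scd1 combine a large rise with a high level, and the fitted change of Ntrk2 rests on 1 count in the control livers.

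The livers of the 2 groups were not equally alike among themselves. Numbers 4 and 5 of the NaKtide group stood apart, with scores of 64.1 and 43.7 on the principal axis that carried 37.6% of the variance, where NaKtide livers 1 to 3 lay between -9.04 and 12.7 and the control livers between -42.5 and 0.108. These 2 livers were the top 2 of the NaKtide group in 102 of the 148 raised genes, or 68.9%, as against 24.3% of all genes tested. The raised genes were called with both livers included, so that share leans high by construction. Without them the comparison of 3 with 5 livers called 1 gene (0.00747% of 13390), with 806 at an unadjusted p under 0.05. All 201 genes kept their direction in that fit. It reuses livers from which these genes were called, so kept direction leans high by construction and is not a separate result. Leaving out 1 NaKtide liver moved the count of 201 to 59 (number 4), 71 (number 5) and 402 (number 2), and leaving out 1 control liver moved it to 104 (number 1), 113 (number 3), 128 (number 4) and 122 (number 5). A set of 74 called genes held list members, genes picked by rule and Ntrk2, which was singled out after its values were seen. Of these 74, 32 stayed called whichever 1 of the 10 livers was left out, Ntrk2 among them. Where a call is said below to be lost without several livers, leaving out any 1 of them was enough. Among the genes described below as called, voom with quality weights did not call Pgd, Elovl6, Ntrk2, Mt1, Lipg, Gpam, Lpin2, Scd1, Acta1, Rgs16, Per2, Per3, Abcd2, Ighm and Acot3 (adjusted p = 0.051 to 0.42). The fold change was smaller by a factor of more than 1.5 than with edgeR for Ntrk2 (log2 change 4.42), Rgs16 (3.05), Gpam (2.22), Acot3 (1.596), Elovl6 (1.2999), Ighm (1.08), Mt1 (-2.62) and Acta1 (-2.99). A fit of the 10 livers alone did not call Acta1, Creld2, Osgin1, Ighm, Scd1, Hmgcs1, Acot3, Per2, Mt1, Sdf2l1, Per3, Stard4 and Lpin2 (adjusted p = 0.055 to 0.11). NaKtide livers 1, 2 and 3 all lay above the 5 control livers in 121 of the 148 raised genes, where 3.41% of all genes did so. The raised genes were called with these 3 livers included, so the share leans high by construction and is not a separate result. Among the control livers, numbers 2 and 4 held transcripts of skeletal muscle, and numbers 1 and 2 were high in metallothioneins and chaperones of the endoplasmic reticulum. Depth was 3177783 to 6069831 counts in the control livers and 5087926 to 7161277 in the NaKtide livers, with 4.86 to 7.18% and 5.33 to 6.87% of counts on mitochondrial genes. Xist had at most 1 count and Y-linked genes were present in all 10, as in male mice.

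**Figure D2:**
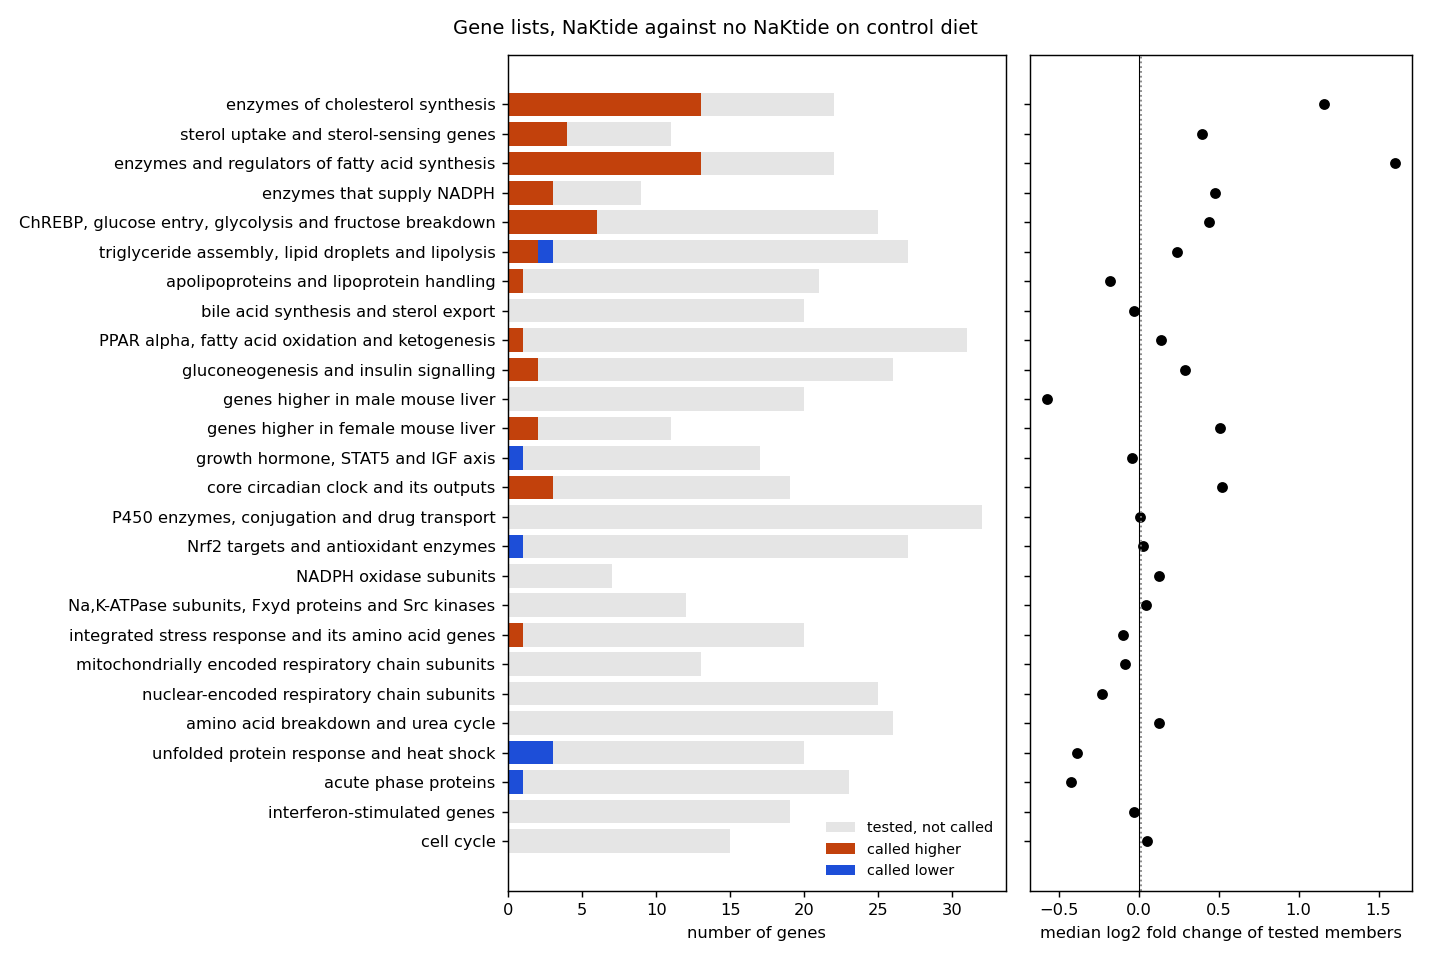
Members of 26 gene lists called higher (orange), called lower (blue) or tested and not called (grey), left, and the median log2 change of the tested members, right; the dotted line is the median of all genes tested, 0.01. The lists of cholesterol and fatty acid synthesis hold 13 raised genes each, and their medians of 1.16 and 1.603 are above those of the other 24 lists.

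Most enzymes of cholesterol synthesis rose with NaKtide. Of 22 enzymes 13 were called higher and 0 lower, with a median log2 change of 1.16, and 20 of the 22 changes were above 0. In 15 of the 22 every NaKtide liver was above every control liver. Their summed level was 2135 to 2918 CPM in the control livers and 3732 to 5015 CPM in the NaKtide livers. Lss, which closes the sterol ring system to give lanosterol (ENSMUSG00000033105, chr10:76531588-76557138 in GRCm38), was at 21.1, 36.0, 24.0, 40.9 and 32.1 CPM in control livers 1 to 5 and at 68.8, 73.3, 67.1, 78.4 and 71.4 CPM in NaKtide livers 1 to 5. The 5 NaKtide livers were nearly equal and all above the control range, and the change was 1.21 ± 0.18 (adjusted p = 0.0022). Hsd17b7, a ketosteroid reductase that removes methyl groups from the sterol nucleus together with its partner enzymes, was at 8.31, 19.6, 14.9, 22.7 and 16.6 CPM without and 42.9, 35.5, 34.2, 65.4 and 46.8 CPM with NaKtide, a change of 1.45 ± 0.25 (adjusted p = 0.0051). Sc5d, a late desaturase of the pathway, was at 156, 238, 215, 366 and 231 CPM without and 566, 446, 568, 689.7 and 577 CPM with NaKtide. Control liver 4 came closest to the NaKtide livers for Sc5d, and the groups did not overlap (log2 1.24 ± 0.21, adjusted p = 0.0051). Sqle, the squalene epoxidase, was not called (adjusted p = 0.14). Its values were 7.36, 27.3, 11.7, 24.5 and 23.8 CPM in the control livers and 53.9, 39.996, 56.1, 68.2 and 39.7 CPM in the NaKtide livers. The groups did not overlap, and control livers 1 and 3 were the lowest.

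With NaKtide livers 4 and 5 left out, the median of the 22 enzymes was 1.13, against 1.16 with them, and 1 enzyme was called. The change of Lss was 1.16 (adjusted p = 0.057), of Hsd17b7 1.18 (adjusted p = 0.13) and of Sc5d 1.12 (adjusted p = 0.11). Leaving out control livers 2 and 4 left 7 enzymes called, with a median of 1.27, and leaving out control livers 1 and 2 left 6, with a median of 0.98. Over all genes these fits called 0.616% of 13465 and 0.97% of 13499. Without NaKtide liver 4 alone 7 enzymes were called. DESeq2 called 16.

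Promoter sequences are shown for 4 raised lipid genes because factors that work beside SREBP bind the CCAAT box, and the letters can be read directly. Each is the 150 bases before the gene start in RefSeq on GRCm38.p6, 5′ to 3′ on the gene's own strand. RefSeq starts can differ from the GENCODE gene coordinates given elsewhere, and the Lss stretch runs into the GENCODE gene. Capitals mark CCAAT or its reverse complement ATTGG, and in Hmgcs1 also TCACNCCAC, the letters of the classic sterol regulatory element. Hmgcs1 is an early enzyme of the mevalonate pathway, and it was chosen for this display after its values and motifs were seen. It was at 28.5, 70.3, 138, 179 and 74.7 CPM without and 336, 192, 309, 371 and 211 CPM with NaKtide (log2 1.54 ± 0.31, adjusted p = 0.015), a call lost without NaKtide liver 4 (adjusted p = 0.053).
Hmgcs1 (chr13:119690201-119690350, plus strand): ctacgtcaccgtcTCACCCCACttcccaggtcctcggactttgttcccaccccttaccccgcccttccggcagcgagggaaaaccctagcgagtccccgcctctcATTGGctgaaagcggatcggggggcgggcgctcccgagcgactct
Lss (chr10:76531455-76531604, plus strand): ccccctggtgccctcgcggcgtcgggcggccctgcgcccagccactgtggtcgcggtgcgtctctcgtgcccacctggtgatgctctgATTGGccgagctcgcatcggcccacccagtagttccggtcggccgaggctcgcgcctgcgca
Sc5d (chr9:42264301-42264450, minus strand): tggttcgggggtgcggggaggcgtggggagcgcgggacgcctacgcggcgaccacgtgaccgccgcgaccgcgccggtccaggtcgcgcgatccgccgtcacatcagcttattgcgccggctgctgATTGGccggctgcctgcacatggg
Fasn (chr11:120824548-120824697, minus strand): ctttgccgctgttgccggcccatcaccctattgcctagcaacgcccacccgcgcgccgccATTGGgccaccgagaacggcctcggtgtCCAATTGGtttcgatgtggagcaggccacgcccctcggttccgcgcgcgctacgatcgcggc
The sterol element lies 137 to 129 bases before the start of Hmgcs1. CCAAT boxes lie 45 to 41 bases before the start in Hmgcs1, 62 to 58 in Lss and 24 to 20 in Sc5d, all on the reverse strand. Fasn has 3 within the stretch shown, and 2 of them overlap. Both strands of the 250 bases before the start were searched. CCAAT was found there in 37.5% of 27025 genes and TCACNCCAC in 1.23%. Among the cholesterol enzymes 16 of 22 had a sequence, and 15 of these held CCAAT. That is under the 80% coverage needed, so a comparison of this share with other genes is void. In the fatty acid list 19 of 22 had a sequence and 11 of these held CCAAT, while TCACNCCAC was found in 0. CCAAT was not particular to the lipid lists. Of the unfolded protein response and heat shock genes 17 of 20 had a sequence, and 15 of these held it. Of the circadian clock genes 17 of 20 had a sequence, and 11 of these held it. A match is a run of letters, and binding was not measured.

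Uptake and sensing of sterol showed the same direction in part. Of 11 tested genes 4 were called higher and 0 lower, with a median of 0.40. The median was 0.10 without NaKtide liver 4, and 0.13 with 0 called by edgeR without NaKtide livers 4 and 5. Insig1, which retains SCAP and is itself an SREBP target, was at 96.2, 183, 120.5, 195 and 158 CPM in the control livers and 286, 293, 308, 410.5 and 333 CPM in the NaKtide livers, with no overlap (log2 1.11 ± 0.19, adjusted p = 0.0051). Insig2, the second retention protein, was at 119, 136, 119, 134 and 71.9 CPM without and 84.3, 119, 109.6, 132 and 84.1 CPM with NaKtide. The 2 ranges for Insig2 overlapped widely (log2 -0.13 ± 0.17, adjusted p = 0.69). Stard4, a carrier of cholesterol between membranes, rose by 0.70 ± 0.17 (adjusted p = 0.046), and that call was lost with RLE scaling in place of TMM (adjusted p = 0.052) and without control liver 1, 3 or 5 or NaKtide liver 1, 3, 4 or 5 (adjusted p = 0.055 to 0.17). Srebf2, which encodes SREBP2, was not called, at 28.7 to 47.7 CPM without and 44.2 to 55.5 CPM with NaKtide (log2 0.40 ± 0.13, adjusted p = 0.13). Srebf1, which encodes the SREBP1 forms, was at 209, 181, 189.7, 194 and 180.2 CPM without and 383, 353, 372, 427 and 566 CPM with NaKtide, with all NaKtide livers higher (log2 1.14 ± 0.20, adjusted p = 0.0056). Gene counts do not separate its isoforms.

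**Figure D3:**
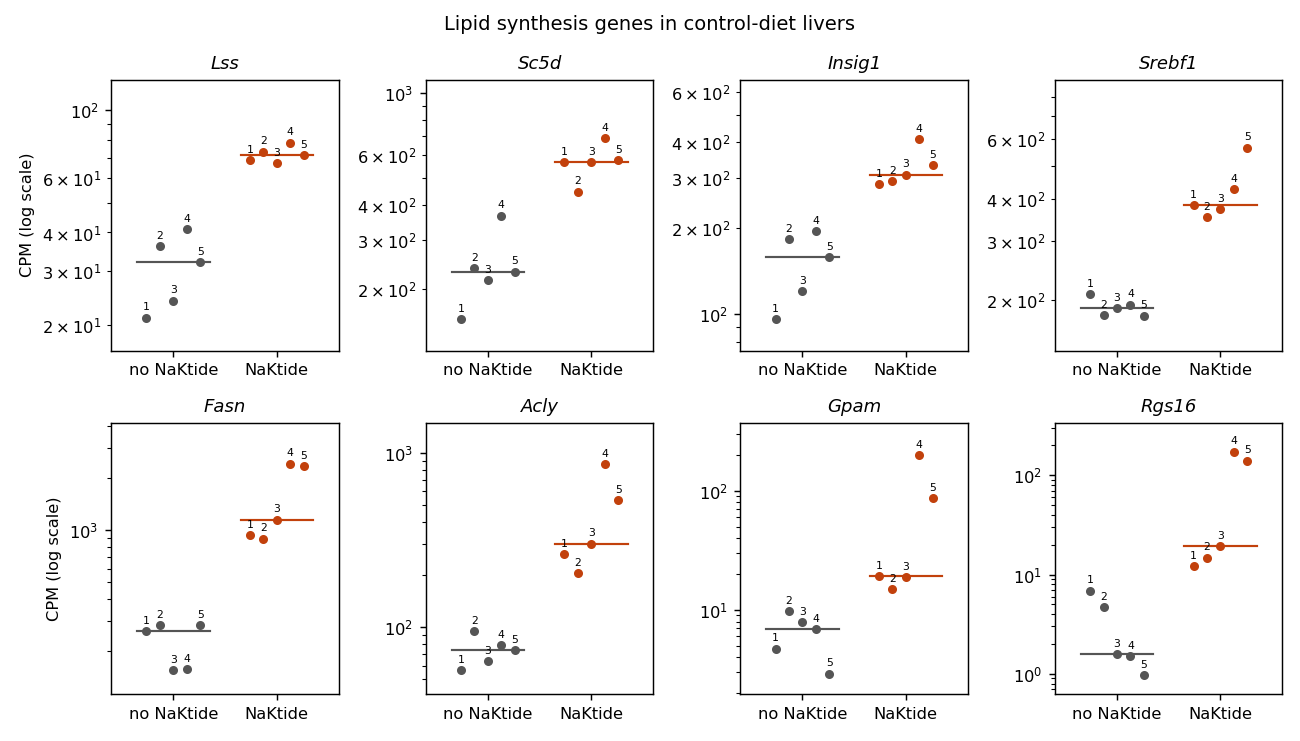
CPM on a log scale for 8 genes in the 5 livers without and the 5 livers with NaKtide; each point is 1 liver with its number, and the line is the group median. In all 8 genes the groups do not overlap. NaKtide livers 4 and 5 stand above the other NaKtide livers for Gpam and Rgs16, and the 5 are close together for Lss.

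Fatty acid synthesis rose with 13 of 22 genes called higher and 0 lower, a median log2 change of 1.603, and 21 changes above 0. In 12 of the 22 the groups did not overlap. Fasn, the synthase that makes palmitate (ENSMUSG00000025153, chr11:120805846-120824547), was at 263, 284, 156, 158 and 285 CPM in the control livers and 939.7, 897, 1155, 2429.8 and 2342 CPM in the NaKtide livers. The lowest NaKtide liver was far above the highest control liver, and livers 4 and 5 were the highest (log2 2.76 ± 0.40, adjusted p = 0.0022). Acly, which splits citrate to give cytosolic acetyl-CoA, was at 56.8, 94.8, 63.5, 78.4 and 73.9 CPM without and 261, 204, 301, 863 and 535 CPM with NaKtide (log2 2.56 ± 0.47, adjusted p = 0.0076). Elovl5, an elongase of polyunsaturated fatty acids, was at 195, 163, 189, 314 and 173 CPM without and 442, 359, 535, 1121 and 754 CPM with NaKtide (log2 1.63 ± 0.25, adjusted p = 0.0022). Control liver 4 was the highest of the controls for Elovl5 and still below every NaKtide liver. Elovl6, which lengthens palmitate to stearate, was at 76.9, 72.9, 45.5, 38.3 and 43.4 CPM without and 106, 78.2, 139.7, 487 and 299.6 CPM with NaKtide. Its separation was narrow, since NaKtide liver 2 lay just above control liver 1 (log2 2.00 ± 0.42, adjusted p = 0.017). Scd1, the desaturase that makes oleate, was at 2978, 3004, 1659.7, 1949.8 and 1683 CPM without and 3162, 3668, 3968, 12046 and 8127 CPM with NaKtide, again with a narrow gap between the groups (log2 1.46 ± 0.32, adjusted p = 0.021). Thrsp, a small protein that promotes lipid synthesis, was at 487, 406, 108, 134 and 181 CPM without and 799, 941, 948, 1357 and 1587 CPM with NaKtide (log2 2.097 ± 0.41, adjusted p = 0.012). Control livers 1 and 2 were the highest of the controls for Thrsp.

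Without NaKtide livers 4 and 5 the median of the fatty acid list was 0.95 in place of 1.603, and edgeR called 0 members. Without 1 liver the count of 13 moved to 6 (NaKtide liver 4 or 5) and to 8 (control liver 3 or 4), and without control livers 2 and 4 together to 6. Elovl6 lost its call without NaKtide liver 4 or 5 (adjusted p = 0.053 to 0.076), and Scd1 without control liver 3, 4 or 5 or NaKtide liver 4 or 5 (adjusted p = 0.056 to 0.092). Without NaKtide livers 4 and 5 the change of Fasn was 2.11 (adjusted p = 0.057), of Acly 1.79 (adjusted p = 0.20), of Elovl5 1.10 (adjusted p = 0.057) and of Scd1 0.67 (adjusted p = 0.62). The order of levels per gene length, in the authors' FPKM, placed Scd1 first of the 22 in both groups, at 695 ± 210.1 without and 1881 ± 1169.9 with NaKtide (SD, n = 5). Fasn moved from rank 11 at 31.2 ± 9.11 FPKM to rank 7 at 208 ± 103 FPKM. Lss stood near the lower end of the 22 sterol enzymes, at 4.26 ± 1.14 and 9.77 ± 0.668 FPKM, rank 21 in both groups.

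Pnpla3, a lipid droplet protein, had 0 counts in the 5 control livers. It was at 0.281, 0.609, 0.475, 9.80 and 1.86 CPM in the NaKtide livers, with NaKtide liver 4 far above the rest. Against a floor of 3 counts over the control group it was at least 26.4-fold higher, a bound for counting error only. It was not called (adjusted p = 0.081).

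Enzymes that supply NADPH, the reductant of lipid synthesis, held 3 raised genes among 9 and 0 lowered, with a median of 0.48. Me1, the cytosolic malic enzyme, which the fatty acid list also holds, was at 86.9, 127, 81.9, 103 and 113 CPM without and 304, 162, 374, 821 and 514 CPM with NaKtide, with no overlap (log2 2.09 ± 0.38, adjusted p = 0.0072). Pgd and Tkt of the pentose phosphate pathway rose by 0.99 ± 0.25 (adjusted p = 0.0497) and 0.79 ± 0.18 (adjusted p = 0.024). The call of Pgd was lost with RLE scaling (adjusted p = 0.058) and without control liver 1, 2, 3, 4 or 5 or NaKtide liver 1, 4 or 5 (adjusted p = 0.067 to 0.22), and that of Tkt without control liver 1, 2, 3 or 5 or NaKtide liver 4 or 5 (adjusted p = 0.052 to 0.10).

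Among genes of sugar entry, glycolysis and fructose breakdown 6 of 25 were higher and 0 lower, with a median of 0.44. The count was 3 without NaKtide liver 5, 3 without control livers 2 and 4, and 0 by edgeR without NaKtide livers 4 and 5, where the median was 0.26. Pklr, the liver pyruvate kinase and a classic ChREBP target, was at 48.2, 69.6, 25.6, 44.6 and 44.6 CPM without and 162, 148, 173, 526 and 349 CPM with NaKtide (log2 2.54 ± 0.43, adjusted p = 0.0051). Slc2a2, the glucose transporter of hepatocytes, was at 74.6, 116, 52.2, 73.2 and 65.3 CPM without and 165, 135, 174, 275 and 262 CPM with NaKtide (log2 1.41 ± 0.27, adjusted p = 0.0097). Both genes separated the groups. Rgs16, a regulator of G-protein signals that follows carbohydrate supply, was at 6.89, 4.72, 1.58, 1.52 and 0.977 CPM without and 12.2, 14.8, 19.5, 173 and 140.2 CPM with NaKtide. The same livers 4 and 5 were several times above the other NaKtide livers for Rgs16 (log2 4.50 ± 0.75, adjusted p = 0.0051, and 2.27 without them). Tkfc, a kinase that phosphorylates glyceraldehyde from fructose, rose by 0.87 ± 0.17 (adjusted p = 0.012). G6pc, which releases free glucose at the end of gluconeogenesis, was at 57.2, 74.0, 57.2, 50.03 and 65.3 CPM without and 272, 138, 241, 166 and 381 CPM with NaKtide (log2 1.98 ± 0.45, adjusted p = 0.028). The hormone gene Fgf21 was low, at 0.712, 0.350, 0, 0 and 0.782 CPM without and 2.53, 2.03, 2.53, 7.29 and 4.33 CPM with NaKtide (log2 3.21 ± 0.77, adjusted p = 0.037). Fgf21 lost its call without control liver 1, 2, 3, 4 or 5 or NaKtide liver 4 or 5 (adjusted p = 0.058 to 0.15), G6pc without control liver 1, 3, 4 or 5 or NaKtide liver 1, 4 or 5 (adjusted p = 0.051 to 0.10) and Tkfc without NaKtide liver 5 (adjusted p = 0.0505). Mlxipl, which encodes ChREBP itself, was not called, at 195, 168, 539, 268 and 167 CPM without and 177, 194, 155, 229.7 and 293 CPM with NaKtide (log2 -0.35 ± 0.28, adjusted p = 0.50). Control liver 3 was the highest of all 10 for Mlxipl. In the list of gluconeogenesis and insulin signalling 2 of 26 were higher and 0 lower, with a median of 0.29. These were G6pc and Ppp1r3b, a subunit that directs a phosphatase to glycogen, at 43.0, 69.3, 43.6, 32.5 and 46.7 CPM without and 109.6, 159, 117, 228 and 211 CPM with NaKtide (log2 1.81 ± 0.40, adjusted p = 0.024). All NaKtide livers were above the controls for Ppp1r3b, and its call was lost without control liver 1, 3, 4 or 5 or NaKtide liver 4 or 5 (adjusted p = 0.058 to 0.088).

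Triglyceride assembly, droplets and lipolysis changed in few members, 2 higher and 1 lower of 27, with a median of 0.24. The median was 0.14 without NaKtide liver 5, 0.15 without control liver 4 and 0.05 without NaKtide livers 4 and 5. Gpam, the mitochondrial acyltransferase of the entry step (ENSMUSG00000024978, chr19:55067268-55127238), was at 4.75, 9.79, 7.90, 6.93 and 2.93 CPM without and 19.3, 15.0, 19.0, 200.04 and 86.7 CPM with NaKtide. Every NaKtide liver was above the controls, and livers 4 and 5 were several times above the other NaKtide livers (log2 3.40 ± 0.63, adjusted p = 0.0087). Without these 2 the change of Gpam was 1.46 (adjusted p = 0.29), and with voom it was 2.22 (adjusted p = 0.078). Lpin2, a phosphatidate phosphatase, rose by 0.92 ± 0.22 (adjusted p = 0.034), a call lost without control liver 1, 3, 4 or 5 or NaKtide liver 4 or 5 (adjusted p = 0.054 to 0.16). Lpl, the lipase that frees fatty acids from circulating triglyceride (ENSMUSG00000015568, chr8:68880491-68907448), went the other way. It was at 53.4, 50.5, 45.2, 66.7 and 27.0 CPM without and 9.15, 24.4, 9.18, 8.48 and 5.57 CPM with NaKtide, where NaKtide liver 2 was the highest of its group and just below control liver 5 (log2 -2.12 ± 0.32, adjusted p = 0.0022). Its change was -1.80 without NaKtide livers 4 and 5 (adjusted p = 0.064). NaKtide livers 4 and 5 stood apart again for Cidec, which was not called. Cidec, a droplet protein of fatty liver that was picked as an adipocyte marker, was at 6.17, 11.9, 2.21, 1.95 and 1.37 CPM without and 3.24, 4.06, 2.53, 77.1 and 65.7 CPM with NaKtide (adjusted p = 0.14).

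Among apolipoproteins and lipoprotein handling 1 of 21 was higher and 0 lower, with a median of -0.18. The raised gene was Lipg, a lipase that acts on high-density lipoprotein, at 1.66, 2.80, 1.58, 0.650 and 2.93 CPM without and 5.21, 4.26, 4.91, 11.5 and 13.1 CPM with NaKtide (log2 1.98 ± 0.46, adjusted p = 0.029). The groups did not overlap for Lipg, and its call was lost without control liver 1, 3 or 4 or NaKtide liver 4 or 5 (adjusted p = 0.069 to 0.11). For bile acid synthesis and sterol export edgeR called 0 of 20, with 4 at an unadjusted p under 0.05 and 1 called by DESeq2, and a median of -0.03. Cyp7a1, the rate-limiting enzyme of bile acid synthesis, was at 12.1, 19.9, 10.1, 22.7 and 19.4 CPM without and 60.5, 7.31, 46.2, 58.7 and 43.0 CPM with NaKtide. The NaKtide livers other than number 2 were above all controls for Cyp7a1 (log2 1.35 ± 0.39, adjusted p = 0.087).

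Fatty acid oxidation held 1 raised gene among 31 and 0 lowered, with a median of 0.14. The median was 5.75e-04 without NaKtide liver 4, 0.034 without NaKtide liver 5, 0.0070 without control liver 3 and 0.041 without control liver 4. It turned to -0.15 without NaKtide livers 4 and 5, and to -0.03 with voom. The gene was Acot3, a peroxisomal thioesterase induced by PPAR alpha, at 2.14, 2.62, 2.53, 2.38 and 3.91 CPM without and 5.35, 0.609, 7.44, 87.6 and 73.3 CPM with NaKtide. NaKtide livers 4 and 5 were far above the other 8, and NaKtide liver 2 was below every control liver. The log2 change was 3.67 ± 0.84 (adjusted p = 0.028), and 0.73 without livers 4 and 5 (adjusted p = 0.89). The call was lost without control liver 1, 2, 3, 4 or 5 or NaKtide liver 4 or 5 (adjusted p = 0.056 to 0.12). Abcd2, a peroxisomal transporter of very long fatty acids, showed a milder form of this pattern, at 3.56, 5.07, 4.11, 3.47 and 5.28 CPM without and 10.6, 4.26, 14.4, 31.4 and 18.2 CPM with NaKtide (log2 1.88 ± 0.48, adjusted p = 0.0497). It was not called with RLE scaling (adjusted p = 0.053) or without control liver 1, 2, 3, 4 or 5 or NaKtide liver 1, 3, 4 or 5 (adjusted p = 0.053 to 0.22). Acot3 and Abcd2 were also the 2 raised members of 11 tested genes that are higher in female liver, a list with 0 lowered members and a median of 0.51 that turned to -0.39 without NaKtide livers 4 and 5.

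**Figure D4:**
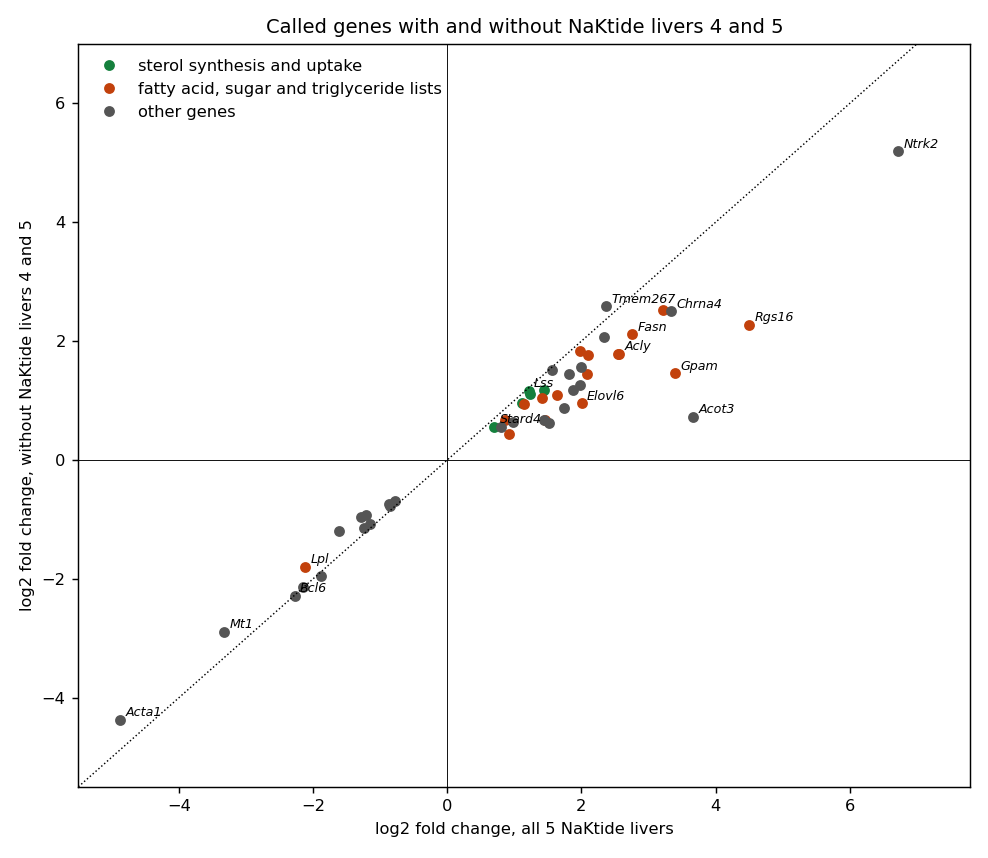
Log2 fold change of 50 called genes, fitted with all 5 NaKtide livers (horizontal) and without NaKtide livers 4 and 5 (vertical); the dotted line marks equal values. Sterol genes such as Lss (1.21 and 1.16) lie near the line, while Gpam, Rgs16 and Acot3 lie well under it. Every point keeps its sign, which the livers shared by both fits favour by construction.

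Growth hormone acts on liver through STAT5 and sets the sex-biased genes. In the list of growth hormone, STAT5 and IGF genes 0 of 17 were higher and 1 was lower, with a median of -0.04. The lowered gene was Bcl6, a repressor that growth hormone holds down and that favours male-biased expression (ENSMUSG00000022508, chr16:23965052-23988852). Bcl6 was at 28.7, 22.0, 30.3, 19.3 and 37.1 CPM in the control livers and 3.80, 9.75, 3.80, 4.78 and 6.65 CPM in the NaKtide livers. Every NaKtide liver was below every control liver (log2 -2.28 ± 0.36, adjusted p = 0.0031). Without NaKtide livers 4 and 5 the change of Bcl6 was -2.28 (adjusted p = 0.073). Igf1, the main hepatic product of growth hormone signalling, was not called, at 593 to 829 CPM without and 374 to 613 CPM with NaKtide (log2 -0.42 ± 0.22, adjusted p = 0.30). Lifr, the receptor of leukaemia inhibitory factor, stands outside that list and fell by 1.28 ± 0.25 (adjusted p = 0.012). Its values were 212, 329, 267, 275 and 241 CPM without and 116, 178, 116, 57.4 and 78.5 CPM with NaKtide, with livers 4 and 5 the lowest, and its call was lost without NaKtide liver 5 (adjusted p = 0.0505).

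Of 20 genes higher in male liver edgeR called 0, with 9 at an unadjusted p under 0.05 and 3 called lower by DESeq2. Their median was -0.57, and -0.32 without NaKtide livers 4 and 5. Cyp4a12b, a male-biased fatty acid hydroxylase, was at 263, 426, 149, 235 and 248 CPM without and 69.1, 132, 78.2, 59.4 and 151 CPM with NaKtide (log2 -1.44 ± 0.42, adjusted p = 0.091). Reads of Cyp4a12b and its near-identical neighbour Cyp4a12a can be split uncertainly by counting. Hsd3b5, a male-biased steroid dehydrogenase singled out after its values were seen, was at 112, 270.0, 259, 333 and 439 CPM without and 120.0, 310.4, 141, 2.15 and 11.9 CPM with NaKtide. NaKtide livers 4 and 5 were far below the other 8 for Hsd3b5, which was not called (adjusted p = 0.34).

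The circadian clock list had 3 raised genes of 19 and 0 lowered, with a median of 0.52. Per2 and Per3, negative arms of the clock, were both raised. Per2 was at 7.84, 6.996, 11.7, 5.41 and 3.91 CPM without and 9.85, 12.6, 11.4, 27.5 and 33.5 CPM with NaKtide. Only livers 4 and 5 of the NaKtide group lay clearly above the control range for Per2 (log2 1.44 ± 0.33, adjusted p = 0.029, and 0.68 without them). Per3 was at 5.94, 9.09, 7.59, 4.33 and 3.32 CPM without and 9.85, 9.34, 8.71, 26.4 and 31.8 CPM with NaKtide, in the same pattern (log2 1.52 ± 0.35, adjusted p = 0.029, and 0.62 without them). Bhlhe40, a repressor that answers light, feeding and hypoxia, behaved otherwise. It was at 63.2, 74.0, 24.3, 18.6 and 37.9 CPM without and 139.8, 132, 105, 115 and 153 CPM with NaKtide, with all 5 NaKtide livers above the controls (log2 1.56 ± 0.37, adjusted p = 0.036, and 1.51 without livers 4 and 5). Each of these calls was lost in several fits without 1 liver, that of Per2 without control liver 1, 2, 4 or 5 or NaKtide liver 4 or 5 (adjusted p = 0.054 to 0.12), that of Per3 without control liver 1, 3, 4 or 5 or NaKtide liver 4 or 5 (adjusted p = 0.051 to 0.12) and that of Bhlhe40 without control liver 3, 4 or 5 or NaKtide liver 1, 4 or 5 (adjusted p = 0.061 to 0.10). Without NaKtide livers 4 and 5, or without control livers 2 and 4, edgeR called 0 clock genes. The hour of sampling is not given in the sources used here, and its part in these results was not tested.

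The falls had another make-up. In the list of unfolded protein response and heat shock 3 of 20 genes were lower and 0 higher, with a median of -0.38. All 3 act in the endoplasmic reticulum. Creld2, a disulfide isomerase-like protein, was at 245, 167, 26.9, 34.4 and 73.3 CPM without and 23.4, 28.4, 23.1, 22.6 and 26.4 CPM with NaKtide (log2 -2.15 ± 0.41, adjusted p = 0.0097). Control livers 1, 2 and 5 were high, and control livers 3 and 4 lay in or near the NaKtide range. Manf, a secreted factor released under stress of that organelle, was at 303, 174, 84.4, 122 and 179 CPM without and 71.9, 95.8, 67.5, 61.7 and 68.8 CPM with NaKtide (log2 -1.24 ± 0.23, adjusted p = 0.0087). Sdf2l1, a cofactor of the chaperone BiP, was at 111, 91.1, 28.5, 44.4 and 53.6 CPM without and 18.2, 48.5, 20.6, 9.56 and 12.1 CPM with NaKtide (log2 -1.62 ± 0.36, adjusted p = 0.024). Hspa5, which encodes BiP, was not called, at 1272, 840.4, 308, 459.6 and 613 CPM without and 473, 552, 475, 488 and 499.6 CPM with NaKtide (adjusted p = 0.33). Without control livers 1 and 2 the change of Creld2 was -0.87 (adjusted p = 0.081), of Manf -0.82 (adjusted p = 0.051) and of Sdf2l1 -0.98 (adjusted p = 0.15). In that fit edgeR called 0 of the list, and its median turned to 0.10. The fit without NaKtide livers 4 and 5 also called 0, with a median of -0.31. Sdf2l1 lost its call without control liver 1 or 2 or NaKtide liver 1, 3, 4 or 5 (adjusted p = 0.051 to 0.091).

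Acute phase proteins, which the liver secretes in inflammation, had 1 lowered gene of 23 and 0 raised, with a median of -0.43 that turned to 0.12 without control livers 1 and 2. The lowered gene was Mt1, a metal-binding metallothionein, at 771, 302, 50.9, 27.3 and 36.6 CPM without and 30.7, 48.5, 17.6, 16.5 and 6.03 CPM with NaKtide. Control livers 1 and 2 held most of the difference (log2 -3.33 ± 0.85, adjusted p = 0.0497, and -0.69 without them at adjusted p = 0.56). With RLE scaling Mt1 was not called (adjusted p = 0.051), nor without control liver 1 or 2 or NaKtide liver 1, 3, 4 or 5 (adjusted p = 0.071 to 0.19).

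**Figure D5:**
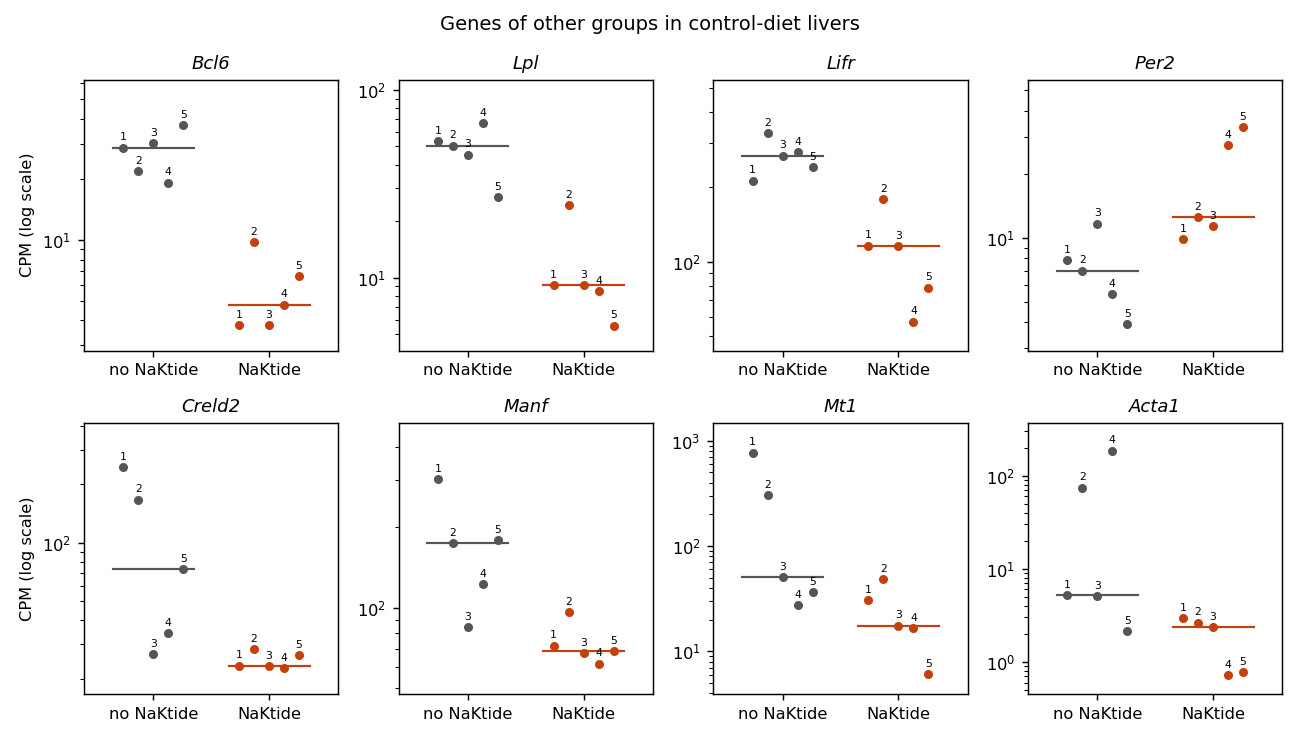
CPM on a log scale for 8 genes outside lipid synthesis in the 5 livers without and the 5 livers with NaKtide; each point is 1 liver with its number, and the line is the group median. Bcl6, Lpl and Lifr separate the groups, control livers 1 and 2 are high for Creld2 and Mt1, and control livers 2 and 4 are high for the muscle gene Acta1.

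Genes for the pump and for Src kinases showed no call. Among Na,K-ATPase subunits, Fxyd proteins and Src kinases edgeR called 0 of 12, with 2 at an unadjusted p under 0.05 and 0 called by DESeq2. Src itself was at 0.195 to 1.58 CPM without and 0.317 to 2.03 CPM with NaKtide (log2 0.50 ± 0.58, adjusted p = 0.66), so its level rests on few counts. For NADPH oxidase subunits edgeR called 0 of 7, with 1 at an unadjusted p under 0.05 and 0 called by DESeq2. Nox4, an oxidase that hepatocytes express, was at 9.50, 12.1, 11.1, 18.4 and 9.97 CPM without and 18.9, 19.3, 23.4, 19.5 and 15.3 CPM with NaKtide (adjusted p = 0.16). Cybb, the subunit of phagocytes, was at 2.38 to 5.67 and 2.85 to 6.90 CPM (adjusted p = 0.79). Of 27 Nrf2 targets and antioxidant enzymes 0 were higher and 1 lower, with a median of 0.03. This was Osgin1, a protein induced by oxidant stress, at 272, 204, 435, 319 and 337 CPM without and 122, 240.0, 135, 69.7 and 109.8 CPM with NaKtide (log2 -1.21 ± 0.29, adjusted p = 0.036). NaKtide liver 2 overlapped the controls for Osgin1, and the call was lost without control liver 1, 3, 4 or 5 or NaKtide liver 1, 3, 4 or 5 (adjusted p = 0.057 to 0.12). Hmox1, the haem oxygenase induced by Nrf2, was at 4.76 to 18.0 CPM without and 10.9 to 23.5 CPM with NaKtide (adjusted p = 0.39).

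Several of the largest changes lay outside these lists. Chrna4, a nicotinic acetylcholine receptor subunit, was at 0.475, 0.525, 2.53, 2.38 and 1.76 CPM without and 6.76, 9.75, 9.03, 27.8 and 20.9 CPM with NaKtide (log2 3.33 ± 0.49, adjusted p = 0.0022). Hcn3, an ion channel gated by cyclic nucleotides, was at 5.46, 8.22, 16.8, 5.20 and 4.50 CPM without and 23.2, 24.6, 21.5, 47.1 and 38.5 CPM with NaKtide (log2 2.00 ± 0.32, adjusted p = 0.0040). Both channel genes separated the groups and were highest in NaKtide livers 4 and 5. Hcn3 (chr3:89146074-89160196) overlaps the raised gene Pklr (chr3:89136142-89146784), and whether its counts hold reads of Pklr was not tested. Lrtm1 rose by 2.33 ± 0.50 (adjusted p = 0.020) and Tmem267 by 2.37 ± 0.44 (adjusted p = 0.0089), and for Tmem267 livers 4 and 5 were not the highest, with 23.6, 12.4, 27.2, 10.4 and 17.0 CPM in NaKtide livers 1 to 5. The call of Lrtm1 was lost without control liver 1 or 3 or NaKtide liver 4 or 5 (adjusted p = 0.053 to 0.069). Ntrk2, the receptor of brain-derived neurotrophic factor, was singled out after its values were seen. It had 1 count in the 5 control livers and 247 in the NaKtide livers, a ratio per total counts of 191.8 with a 95% counting interval of 34.1 to 7605, which covers counting error only. Every NaKtide liver was above every control liver, at 1.55, 4.06, 2.06, 14.7 and 12.4 CPM (adjusted p = 0.0031).

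Lowered genes with separate groups included Adam11, a membrane protein of the disintegrin family, at 35.4, 25.2, 87.6, 36.8 and 25.4 CPM without and 10.6, 14.6, 7.28, 11.9 and 12.1 CPM with NaKtide (log2 -1.88 ± 0.39, adjusted p = 0.017). Control liver 3 was the highest for Adam11, whose call was lost without NaKtide liver 4 (adjusted p = 0.053). Nlrp12, an inflammasome-family protein, was at 35.9, 47.2, 50.6, 61.7 and 58.1 CPM without and 21.5, 23.6, 26.9, 18.8 and 23.5 CPM with NaKtide (log2 -1.15 ± 0.20, adjusted p = 0.0056). The P450 genes Cyp2a12 and Cyp2c40 fell by 0.85 ± 0.14 (adjusted p = 0.0051) and 0.78 ± 0.19 (adjusted p = 0.037), the second a call lost without control liver 1, 2 or 4 or NaKtide liver 1, 3, 4 or 5 (adjusted p = 0.056 to 0.12). Cyp2a12 was at 1057 to 1266 CPM in the control livers and 535 to 763 CPM in the NaKtide livers. Reads of P450 genes with close relatives can be split uncertainly. Tk1, a thymidine kinase of DNA synthesis, fell by 0.88 ± 0.18 (adjusted p = 0.018), a call lost without control liver 4 or NaKtide liver 4 (adjusted p = 0.054 to 0.059). It was at 38.9 to 55.7 CPM without and 14.7 to 27.6 CPM with NaKtide, with no overlap.

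Markers of cell types were read beside these results. The 12 hepatocyte markers, albumin among them, summed to 44296 to 57395.5 CPM without and 38351 to 49476 CPM with NaKtide, and edgeR called 0, with 0 at an unadjusted p under 0.05 and 0 called by DESeq2. Kupffer cell markers had 0 of 10 called, 0 at an unadjusted p under 0.05 and 0 called by DESeq2, and summed to 162 to 380.0 CPM without and 239 to 484 CPM with NaKtide. Other macrophage markers had 0 of 15 called, 1 at an unadjusted p under 0.05 and 0 called by DESeq2. Their sums were 79.7 to 162 and 96.2 to 192 CPM. Markers of T, B and NK cells summed to 18.0 to 34.2 CPM without and to 42.9, 52.0, 47.2, 137 and 91.8 CPM in NaKtide livers 1 to 5, with 1 of 4 tested genes raised. That gene was Ighm, an immunoglobulin chain of B cells, at 31.3, 25.0, 7.90, 12.6 and 17.6 CPM without and 29.1, 39.2, 37.7, 126 and 85.6 CPM with NaKtide (log2 1.74 ± 0.39, adjusted p = 0.026). Ighm made up most of the sum in every NaKtide liver, so the sum mainly follows this 1 gene. Livers 4 and 5 of the NaKtide group led here as well, the call was lost without control liver 3, 4 or 5 or NaKtide liver 4 or 5 (adjusted p = 0.062 to 0.12), and the part of lymphocytes in the other results was not tested.

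Skeletal muscle genes had 4 of 6 tested members lowered and 0 raised. The 15 muscle genes summed to 23.0, 361, 31.3, 758 and 14.5 CPM in control livers 1 to 5 and to 8.36 to 26.9 CPM in the NaKtide livers. Acta1, the actin of muscle fibres, was at 5.22, 74.2, 5.06, 186 and 2.15 CPM without and 2.96, 2.64, 2.38, 0.717 and 0.773 CPM with NaKtide (log2 -4.88 ± 0.90, adjusted p = 0.0087). Without control livers 2 and 4 the change was -1.12 (adjusted p = 0.22), and 0 muscle genes were called by edgeR. The Fasn change in that fit was 2.72 (adjusted p = 0.024), that of Lss 1.47 (adjusted p = 0.0055) and that of Lpl -1.90 (adjusted p = 0.024).

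The effect of NaKtide on most genes of cholesterol and fatty acid synthesis differed between the diets. This was tested in the same fit by the interaction term, the change on Western diet less the change on control chow. The Western diet held 42% fat, and 5 livers with and 5 without NaKtide were available. Of all genes tested 649 differed between diets (5.0%), with the effect on Western diet higher in 269 (2.07%) and lower in 380 (2.93%). RLE scaling turned this split to 375 higher and 342 lower. The interaction subtracts the change on control diet, so genes that rose there lean to lower values by construction, and the 2 results share the 10 control-diet livers. In the cholesterol list 17 of 22 enzymes were lower in the interaction and 0 higher, and in the fatty acid list likewise 17 of 22 and 0.

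Lss was at 32.5 to 63.7 CPM on Western diet alone and 25.3 to 38.8 CPM with NaKtide. Its change there less that on control chow was -1.96 ± 0.26 on the log2 scale (adjusted p = 4.0e-04). Acly was at 265 to 1121 CPM on Western diet and 93.3 to 462 CPM with NaKtide (interaction -4.41 ± 0.65, adjusted p = 8.3e-04). Every Western diet liver without NaKtide was above the control-diet range of Acly without NaKtide, 56.8 to 94.8 CPM. Gpam was at 37.4 to 105 and 14.1 to 46.1 CPM (interaction -4.75 ± 0.84, adjusted p = 0.0035). Chrna4 was at 28.6 to 61.3 and 3.76 to 14.1 CPM (interaction -5.67 ± 0.62, adjusted p = 1.0e-04). Lpl differed with the opposite sign, at 27.4 to 47.2 CPM on Western diet and 42.8 to 97.5 CPM with NaKtide (interaction 3.27 ± 0.44, adjusted p = 4.0e-04). Cyp2a12 did so too (1.17 ± 0.20, adjusted p = 0.0029). For some genes no difference between diets was detected. The interaction was 0.04 ± 0.36 for Lifr (adjusted p = 0.96), 0.01 ± 0.61 for Abcd2 (adjusted p = 0.99), 0.48 ± 1.27 for Acot3 (adjusted p = 0.83) and -0.36 ± 0.49 for Per3 (adjusted p = 0.66). For Bcl6 it was 1.61 ± 0.50 (adjusted p = 0.060). The count of 649 moved to 2738 without Western diet NaKtide liver 1, to 2028 without Western diet liver 1, to 192 without Western diet NaKtide liver 4 and to 129 without control-diet NaKtide livers 4 and 5. The mitochondrial share of counts was 5.64 to 11.6% in Western diet livers and 7.06 to 16.9% in those with NaKtide, and with this share as a covariate 149 genes differed.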

How the data were processed

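RNA of mouse liver was made into stranded mRNA libraries and sequenced, per the labels' protocols. Trimmomatic 0.38, HISAT2 2.1.0, DESeq2 1.20.0 and the build GRCm38 are named in the submitters' processing notes; which program and annotation gave the counts is not given in the sources used here. The authors deposited 1 table of raw counts for 54232 gene identifiers, of which 54079 matched GENCODE M21, the source of symbols and coordinates. The authors' deposited FPKM table was used only for levels per gene length, and a normalized table was not used.

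edgeR 4.0.16 under R 4.3.3 was run on these counts (filterByExpr, TMM, quasi-likelihood F test with its default prior count). A prior count of 2 was used only for the log2 CPM behind the principal axes and the check of replicate numbers. The 4 liver groups shared 1 fit with group as the sole term, 12991 genes were tested, and p-values were Benjamini-Hochberg adjusted at 0.05. The biological coefficient of variation was 0.251. Totals were 3177783 to 7161277 counts per liver of the comparison. In simulated counts for 12991 genes with 200 changed, 78% of 2-fold and 99% of 4-fold changes were recovered and 10 unchanged genes were called. The changed genes were drawn only from genes above a minimum expected count. Each gene varied independently, with no livers of a group standing apart together as in the real data. These figures therefore do not cover such livers or genes of few counts. No 2 livers of a group matched within sampling noise. Floors and intervals cover counting error only, and no molecular identifiers are named in the labels' protocols.

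Named genes were the 12 largest rises and falls among called genes whose groups did not overlap and whose mean reached 5 CPM, up to 4 called members per list and direction (or 2 members of smallest p where none was called), and a set of fixed genes; some of these are not reported here. Members and lists were chosen with earlier results of these data known. Alternatives were RLE scaling, no count filter, DESeq2 1.42.0, limma 3.58.1 (voom with quality weights), the 2 groups alone, a replicate block and leaving out each liver. Leaving out NaKtide livers 4 and 5, control livers 2 and 4 or control livers 1 and 2, and the mitochondrial share as a covariate, were added after seeing the data. Promoters came from RefSeq (GRCm38.p6).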

Additional observations from a re-analysis of the deposited data

Results flagged for a closer look

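In 35 of 62 genes checked, the change with NaKtide differed between the diets (edgeR, adjusted p under 0.05), as it did in 5.0% of all genes tested. Many of the 62 were picked by their change on control chow, so their share leans high by construction. The values are log2 differences, Western diet less control chow, each diet with 5 against 5 livers, and the control-diet change enters each of them. In cholesterol synthesis the difference was -4.64 for Sqle, -2.19 for Hsd17b7, -1.96 for Lss and -1.66 for Sc5d. For genes that sense or carry sterol it was -1.65 for Insig1, -1.02 for Insig2 and -1.02 for Stard4. In fatty acid synthesis it was -4.41 for Acly, -3.54 for Fasn, -3.43 for Me1, -2.91 for Thrsp, -2.54 for Elovl6, -1.77 for Elovl5, -1.67 for Scd1 and -1.02 for Srebf1. Of the NADPH genes Pgd differed by -1.99. Among genes of sugar handling it was -4.86 for Rgs16, -3.76 for Pklr, -2.95 for G6pc, -2.47 for Ppp1r3b, -1.77 for Slc2a2 and -1.34 for Tkfc. For the triglyceride genes it was -9.14 for Pnpla3, which had 0 counts in the control livers, -4.75 for Gpam and, with the opposite sign, 3.27 for Lpl. Among the remaining genes it was -5.67 for Chrna4, -6.11 for Ntrk2, -2.69 for Hcn3, -2.67 for Lrtm1, -2.73 for Ighm and -1.79 for Bhlhe40. It was above 0 for Mt1 (4.81), Adam11 (2.81), Tk1 (1.75) and Cyp2a12 (1.17). The fitted values of Pnpla3 and Ntrk2 rest on 0 and 1 counts in the control livers and depend on the default prior count of the fit.

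In 11 of 124 groups of 5 livers, 1 liver stood apart from the other 4 by Dixon's test, which chance alone does in about 1 group in 20. Among the control livers the high value was liver 3 for Adam11 (87.6 CPM) and Mlxipl (539 CPM), liver 4 for Elovl5 (314 CPM) and Nox4 (18.4 CPM), liver 5 for Acot3 (3.91 CPM) and liver 1 for Ntrk2 (0.237 CPM, 1 count), and the low value was liver 5 for Insig2 (71.9 CPM). Among the NaKtide livers it was liver 2 for Lpl (24.4 CPM) and Sdf2l1 (48.5 CPM), liver 4 for Pnpla3 (9.80 CPM), and liver 4 at the low end for Tk1 (14.7 CPM).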

How the results depend on the processing

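The 201 calls became 308 with no count filter, 414 with DESeq2, 124 with the 2 groups alone, and 59 to 402 when 1 liver was left out. Within 1.5 times of 201 were RLE scaling (177), voom (239) and the mitochondrial share as a covariate (297). In fits added after the data were seen, like the last, 83 remained in number without control livers 2 and 4, 131 without control livers 1 and 2, and 1 without NaKtide livers 4 and 5. The share of calls that were higher was 73.6%, against 56.9% with voom, 59.4% with DESeq2 and 61.0% with no filter. The 649 genes of the diet difference became 1476 with DESeq2, 3243 with voom, 364 without control livers 2 and 4, 129 without NaKtide livers 4 and 5, 149 with the mitochondrial share, and 192 to 2738 when 1 liver was left out.

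With a replicate block the counts were 62 and 155. Between the control-diet groups, deviations of same-numbered livers correlated at 0.03, -0.22, -0.10, -0.04 and -0.06, and 0 of 5 correlated best with their own number. Western diet livers were not checked in this way. With so few livers the check cannot exclude a shared litter or day, so whether the block belongs in the fit is not settled.

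Of the called genes printed, 50 were compared fit by fit (Hmgcs1 is left out of these counts and also kept its direction), and all kept their direction in every fit that tested them. These fits reuse livers from which the genes were called, so agreement in direction leans high by construction. Calls were kept by 46 with RLE scaling, 35 with voom, 26 with the block, 24 without control livers 2 and 4, 32 without control livers 1 and 2, and 0 without NaKtide livers 4 and 5. DESeq2 kept all 49 to which it gave an adjusted p. Genes that were not called turned sign in 3 cases: Cybb (0.17, and -0.0058 to 0.34 when 1 liver was left out, the lowest without NaKtide liver 2), Insig2 (-0.13, and 0.036 without control livers 2 and 4) and Mlxipl (-0.35, and -0.50 to 0.054 when 1 liver was left out, the highest without control liver 3). The cause of these changes was not tested. Depth limits genes under about 1 CPM, where Ntrk2, Fgf21, Src and Pnpla3 had few or 0 counts in control livers.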

Other observations

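Several gene lists held no called gene or 1. For a list of P450 enzymes, conjugation and drug transport, which does not hold the lowered P450 genes Cyp2a12 and Cyp2c40, edgeR called 0 of 32, with 4 at an unadjusted p under 0.05, 0 called by DESeq2, 1 called lower by voom and a median log2 change of 0.0089. For amino acid breakdown and the urea cycle it called 0 of 26, with 4 at an unadjusted p under 0.05, 0 called by DESeq2 and a median of 0.13. For nuclear-encoded subunits of the respiratory chain it called 0 of 25, with 7 at an unadjusted p under 0.05, 1 called lower by DESeq2 and a median of -0.23. For the subunits encoded in mitochondria it called 0 of 13, with 0 at an unadjusted p under 0.05, 0 called by DESeq2 and a median of -0.09. For interferon-stimulated genes it called 0 of 19, with 5 at an unadjusted p under 0.05, 1 called lower by DESeq2 and a median of -0.03. For the cell cycle it called 0 of 15, with 3 at an unadjusted p under 0.05, 2 called higher by DESeq2 and a median of 0.05. Of 20 tested genes of the integrated stress response Fgf21 was the 1 raised and 0 were lowered, with a median of -0.10.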
